A study of Mus musculus with 18 samples.

Results

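Polycomb proteins keep developmental genes silent by writing marks on histones. Polycomb repressive complex 2 (PRC2) methylates histone H3 at lysine 27 through a catalytic subunit that is either Ezh2 or its paralog Ezh1, and it needs the core subunits Eed and Suz12. Ezh2 is typical of dividing cells and Ezh1 of resting and differentiated cells, and Jarid2 is an accessory subunit that helps PRC2 bind chromatin. Polycomb repressive complex 1 (PRC1) ubiquitinates histone H2A through Rnf2 (also called Ring1b) or its paralog Ring1. Its canonical forms carry a PCGF subunit such as Bmi1 and a CBX subunit such as Cbx7 or Cbx8, which reads the methyl mark.

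These 10 genes (Ezh1, Ezh2, Eed, Suz12, Jarid2, Ring1, Rnf2, Bmi1, Cbx7 and Cbx8) were taken by symbol from a table of 54232 gene identifiers, and all 10 were found. The table holds nascent RNA counts from sorted C57BL/6 mouse fetal liver cells of stage e12.5-e13.5, which rested 6 h after sorting and were then given 500 µM 4-thiouridine for 45 min. Newly made RNA takes up this uridine analogue and was purified through it before sequencing (4sU-seq), so the counts follow recent transcription and not protein. There were 18 libraries, 3 from each of 6 populations. S0-Low cells were sorted without lineage markers or Ter119, with CD71 called low in their name and negative in their marker label, and hold stem and progenitor cells and early erythroid progenitors (BFU-E). S0-Medium cells had medium CD71 and S1 cells high CD71 without Ter119, and these correspond to early and late CFU-E, the later erythroid progenitors. S2 and S3 cells had high CD71 with medium and high Ter119, and are maturing erythroblasts. Lin+ cells carried a marker of another blood lineage, although their label also calls them primary erythroblasts. The wild-type cells received no treatment other than 4-thiouridine, and each population is a surface gate, not a pure cell type.

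Library totals ranged from 9452476 counts in the S0-Low replicate 3 library to 40567976, with a median of 33174876. Marker genes were compared with the gates. Summed over 7 erythroid marker genes, the level was 496 to 1047 in S0-Low and 22696 to 38721 in S3, in counts scaled to a common library total with edgeR's TMM factors (TMM-scaled CPM, the unit of all levels below). Over 10 lineage panel and myeloid genes the sum was 3585 to 6126 in Lin+ and 620 to 1056 in S0-Low, against 18.6 to 78.9 in S3. There Ptprc, Ly6c2, Ly6g, Elane, Csf1r and Lyz2, which all had counts in Lin+, had 0 counts. Nearly all of the S3 sum was Itga2b, at 18.3, 77.8 and 36.0, above its 10.9, 12.1 and 5.64 in S2. Itgam had 0 counts in all 18 libraries and Cd3e in all but 1 Lin+ library with 4 counts, so these genes mark no gate here. Lin+ cells held erythroid markers at 270 to 350. What sets the replicates apart (litter, day or pool) is not in the labels, so p-values measure the spread between these samples, which may be technical. Because these are bulk samples, fewer cells of a type and less RNA per cell cannot be told apart.

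The Ezh1 and Ezh2 promoters are shown here because these paralogs rose to S3 together and are the pair whose balance is described below. Each line is the 250 bases before the start used for the gene (RefSeq, GRCm38.p6), 5′ to 3′ along the gene. Both genes lie on the minus strand. Ezh1 (ENSMUSG00000006920) spans chr11:101191115-101226463 and Ezh2 (ENSMUSG00000029687) spans chr6:47530274-47595270 on that build. The stretches shown cover chr11:101226464-101226713 for Ezh1 and chr6:47595031-47595280 for Ezh2. The Ezh1 stretch adjoins the span of its gene, while most of the Ezh2 stretch lies inside the Ezh2 span. The start used for Ezh2 is therefore not the outermost end of that span. Capitals mark matches to CCAAT, read on either strand.
Ezh1: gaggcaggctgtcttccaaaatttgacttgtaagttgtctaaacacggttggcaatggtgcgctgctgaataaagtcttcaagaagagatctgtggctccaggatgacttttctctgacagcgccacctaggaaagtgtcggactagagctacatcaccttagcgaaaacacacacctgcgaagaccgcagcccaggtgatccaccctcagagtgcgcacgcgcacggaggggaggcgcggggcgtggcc
Ezh2: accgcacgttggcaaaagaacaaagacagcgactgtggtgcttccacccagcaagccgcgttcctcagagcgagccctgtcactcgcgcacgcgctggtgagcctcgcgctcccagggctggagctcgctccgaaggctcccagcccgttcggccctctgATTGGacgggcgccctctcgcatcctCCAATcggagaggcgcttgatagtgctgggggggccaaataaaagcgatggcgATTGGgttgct
The search covered these bases and the 50 that follow. Ezh2 had 3 CCAAT matches, which began 90, 64 and 11 bases before the start used, and Ezh1 had none. The Ezh2 matches all lie inside the Ezh2 span given above. CCAAT was present in 37.4% of 32851 promoters of that length. The other 3 motifs were searched on both strands and were found in neither promoter. The motif of the erythroid GATA factors, with the letters AGATAA, was held by 11.2% of all promoters. The motif of the E2F factors of the cell cycle, searched as GCGGGAA, was held by 4.60%. The GC box, searched as GGGCGG, was held by 35.7%, and its matches can overlap those of E2F. The GC content was 55.2% in the Ezh1 stretch and 63.6% in the Ezh2 stretch, against a median of 52.4% over all promoters.

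Ezh1 nascent RNA was low in the progenitors and rose sharply in S3. In S0-Low the 3 libraries read 27.6, 27.2 and 35.5, in S0-Medium 26.6, 24.2 and 49.9, and in S1 21.7, 26.8 and 82.9. In S2 they read 26.7, 29.7 and 91.6, and in S3 135, 187 and 453. Every S3 library lay above all 12 libraries of the earlier populations, whose ranges overlapped each other. The replicate 3 library was the highest of its population in all 6 populations, and it sets much of the spread in S1, S2 and S3. Ezh1 was 3.10 ± 0.64 (SE) log2 units higher in S3 than in S0-Low (adjusted p = 0.00181, edgeR quasi-likelihood test, Benjamini-Hochberg adjustment over 16555 genes, as for all erythroid comparisons below). From S2 to S3 alone it rose by 2.39 ± 0.62 (adjusted p = 0.0252). That step lost its call when the S3 replicate 3 library was left out (1.70, adjusted p = 0.124), the S2 replicate 1 library (2.08, adjusted p = 0.113) or the S2 replicate 2 library (2.12, adjusted p = 0.114), while with all number 3 libraries left out it was 2.51 (adjusted p = 0.00058).

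Ezh2 nascent RNA climbed more evenly. Its libraries read 214, 158 and 148 in S0-Low, 260, 197 and 200 in S0-Medium, and 315, 257 and 265 in S1. They read 329, 310 and 364 in S2 and 439, 471 and 751 in S3. Each same-numbered library was higher at every step from S0-Low to S3, and neighbouring populations overlapped until S3, which lay apart. Ezh2 was 1.67 ± 0.28 log2 units higher in S3 than in S0-Low (adjusted p = 0.000419, edgeR quasi-likelihood test). Against S2 the S3 level was 0.73 ± 0.28 higher and did not pass (adjusted p = 0.106). This step passed with DESeq2 (0.88, adjusted p = 0.0176) and with the replicate number as a block (0.73, adjusted p = 0.0401, edgeR). With library totals it was 0.20 (adjusted p = 0.583) and with block and library totals together 0.19 (adjusted p = 0.46).

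**Figure D1:**
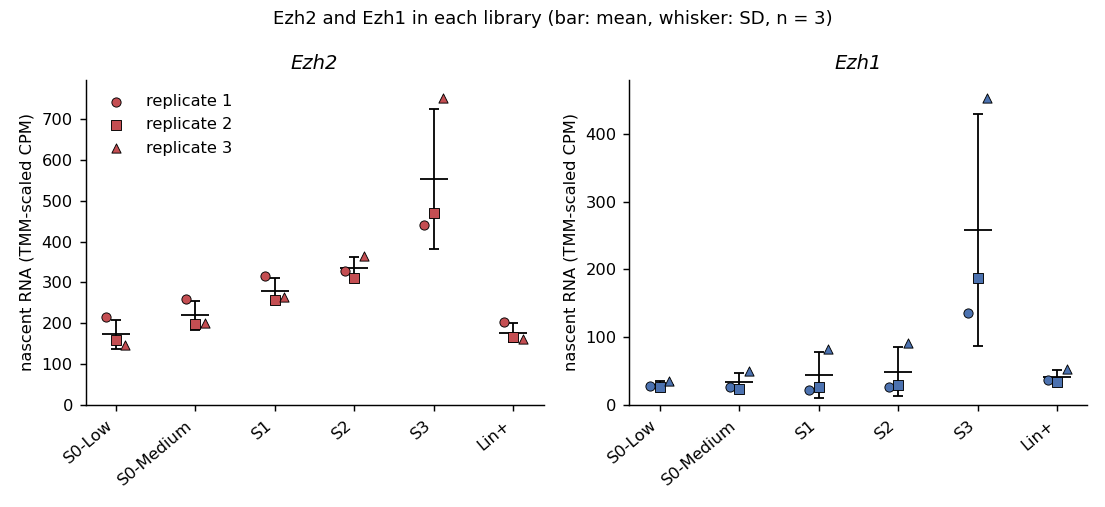
Nascent RNA of Ezh2 (left) and Ezh1 (right) in TMM-scaled CPM on linear axes from 0, by population. Each point is a library with its shape giving the replicate number, the bar is the mean and the whisker the SD of 3 libraries. Ezh2 rises over all populations from S0-Low to S3, while no Ezh1 library exceeds 91.6 before S3, where its libraries span 135 to 453.

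The balance between the paralogs moved towards Ezh1 in S3. Within a library the ratio of Ezh2 to Ezh1 counts does not depend on how libraries are scaled, and it is described here without a test. The ratio was 7.77, 5.81 and 4.16 in the S0-Low libraries, and 3.26, 2.52 and 1.66 in the S3 libraries. In S1 it was 14.5, 9.59 and 3.20, and in S2 12.3, 10.4 and 3.97. All S3 ratios lay below all S0-Low ratios and all S2 ratios, although the S1 replicate 3 ratio fell below that of S3 replicate 1. On the log2 scale the mean ratio was 2.52 ± 0.45 in S0-Low and 1.26 ± 0.49 in S3 (SD, n = 3). The difference was -1.26. In the pairs numbered 1, 2 and 3 the fall was 1.25, 1.21 and 1.33. The SD of these, 0.06, rests on pairing by number. Over all tested genes, same-numbered S3 and S0-Low libraries did not pass as deviating together. From S2 to S3, where same-numbered libraries did, the mean difference was -1.74 ± 0.42 (SD, n = 3). Without the number 3 libraries the S3 minus S0-Low difference was -1.23.

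Before S3 the ratio had no common direction. From S0-Low to S2 it rose in the replicate 1 and 2 libraries and changed little in replicate 3, where it was 2.06 in S0-Low and 1.99 in S2 on the log2 scale. The replicate 3 library had the lowest ratio in every population. Divided by the length of the longest coding transcript, Ezh2 still exceeded Ezh1 in all 18 libraries, by 6.61 to 12.3 times in S0-Low and by 2.63 to 5.16 times in S3. No library had more Ezh1 than Ezh2 on that scale.

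**Figure D2:**
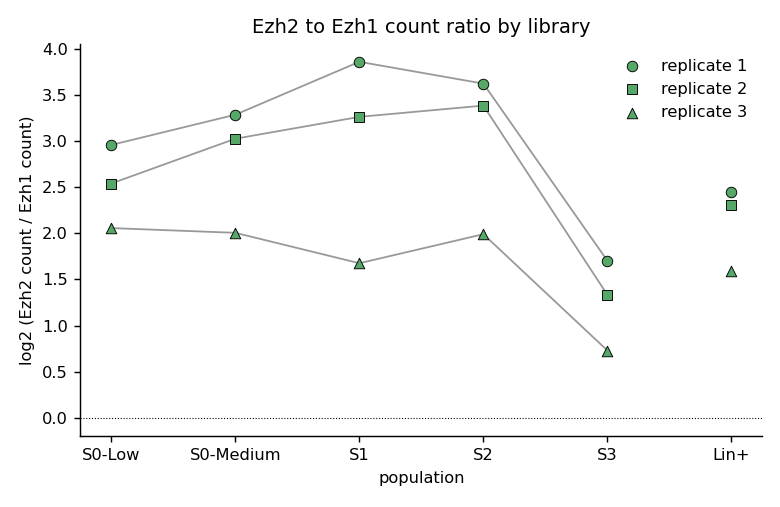
The log2 ratio of Ezh2 to Ezh1 counts in each library, by population, with grey lines joining libraries of the same replicate number and a dotted line at equal counts. All 3 lines drop from S2 to S3, to 1.70, 1.33 and 0.73, and the replicate 3 line lies below the others throughout.

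Of the remaining PRC2 genes among the 10, Suz12 also rose, and Eed and Jarid2 did not pass. Suz12 read 175, 231 and 278 in S0-Low, 320, 332 and 345 in S1, and 379, 403 and 467 in S3. All S3 libraries exceeded all S0-Low libraries, and the libraries of S1 lay above those of S0-Medium (197, 258 and 237). Suz12 was 0.87 ± 0.27 log2 units higher in S3 than in S0-Low (adjusted p = 0.0211, edgeR). This call was lost under 6 other choices of scaling, filter or libraries and also without S0-Low replicate 1 (0.65, adjusted p = 0.127), S0-Low replicate 2 (0.81, adjusted p = 0.0783) or S3 replicate 3 (0.77, adjusted p = 0.0737). With plain library totals in place of TMM factors the difference was 0.00 (adjusted p = 0.999).

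Eed did not pass, at 87.1, 74.4 and 79.3 in S0-Low and 92.8, 79.5 and 113 in S3. The difference was 0.24 ± 0.26 (adjusted p = 0.491, edgeR) and its sign turned with library totals, to -0.61. Jarid2 read 247, 170 and 150 in S0-Low and 204, 156 and 75.4 in S3, with overlapping ranges and a difference of -0.38 ± 0.38 (adjusted p = 0.44). With library totals the Jarid2 difference was -1.15 and passed (adjusted p = 0.0265).

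The choice of scaling matters for these values because S3 differs from S0-Low over the whole table. The median of all 16555 tested genes was -0.54 with TMM factors and -1.36 with library totals, both as log2 differences of S3 minus S0-Low. Relative to the TMM median, Ezh1 stood 3.64 higher, Ezh2 2.21, Cbx7 1.96, Suz12 1.41, Eed 0.78 and Jarid2 0.16. Rnf2 stood at -0.10, Ring1 at -0.51 and Bmi1 at -1.20 on the same measure. Ezh1 and Ezh2 passed with every alternative of scaling, filter, model and libraries tried, between 2.03 and 3.40 for Ezh1 and between 0.81 and 1.80 for Ezh2.

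**Figure D3:**
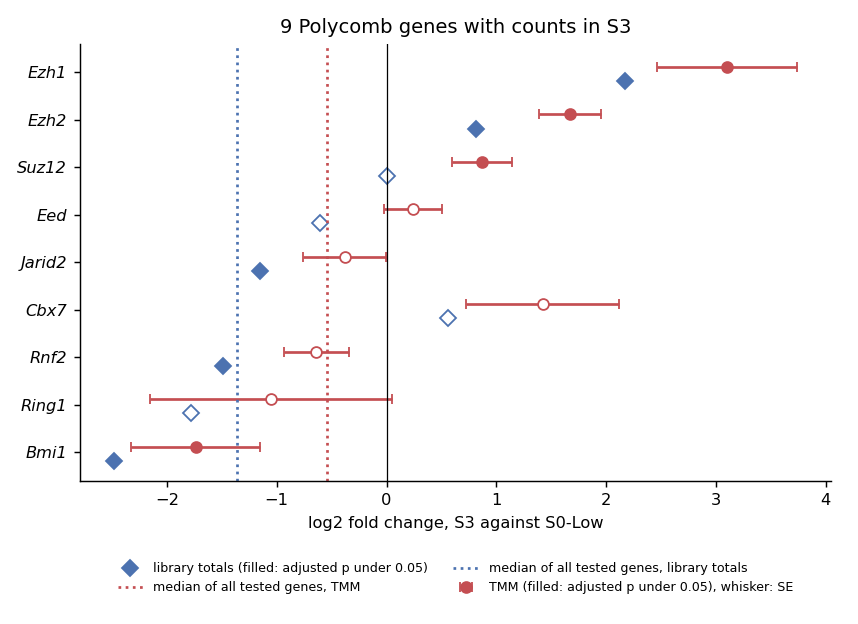
Log2 fold change of S3 against S0-Low for the 9 genes with counts in S3, with TMM factors (red circles, whisker: SE) and with library totals (blue diamonds), filled where the adjusted p was under 0.05. Dotted lines give the median of all tested genes for each scaling, -0.54 and -1.36. Ezh1 and Ezh2 stay filled and to the right of 0 under both, while Suz12 moves onto 0 with library totals.

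In PRC1, Bmi1 and Cbx8 fell and the catalytic pair did not pass. Bmi1 read 39.3, 46.0 and 31.6 in S0-Low, 74.4, 33.6 and 30.6 in S2, and 23.8, 7.98 and 3.39 in S3. All S3 libraries were below all S0-Low and all S2 libraries. Bmi1 fell by 1.74 ± 0.58 log2 units from S0-Low to S3 (adjusted p = 0.0309, edgeR) and by 1.98 ± 0.59 from S2 to S3 (adjusted p = 0.0466). The call from S0-Low was lost without S0-Low replicate 1 (adjusted p = 0.0512), S0-Low replicate 2 (adjusted p = 0.0662), S3 replicate 2 (adjusted p = 0.0908) or S3 replicate 3 (adjusted p = 0.0857). The call from S2 was lost without S2 replicate 1 (adjusted p = 0.216) or S2 replicate 2 (adjusted p = 0.0769). It was lost too without S3 replicate 2 (adjusted p = 0.102) or S3 replicate 3 (adjusted p = 0.119). With RLE size factors, a change of scaling alone, it was also lost (-1.88, adjusted p = 0.0525). Both calls were lost as well with only the libraries compared and with all number 3 libraries left out.

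Cbx8 was the only one of the 10 genes with 0 counts in all 3 S3 libraries. It had 470, 309 and 0 counts in S0-Low, 215, 144 and 314 in S0-Medium, 119, 122 and 109 in S1, and 71, 87 and 44 in S2. The S0-Low replicate 3 library, the shallowest, also had none, so the S0-Low and S3 ranges touched, while all S2 libraries lay above S3. Against a floor of 3 counts in each S3 library, Cbx8 in S3 was at least 37.1-fold lower than in S0-Low (adjusted p = 0.0028, edgeR) and at least 13.7-fold lower than in S2 (adjusted p = 0.0198). The bound against S0-Low was 21.6-fold without S0-Low replicate 1. The call against S2 was lost without S3 replicate 3 (adjusted p = 0.0571).

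Cbx7 was higher in mean in S3 without passing. Its libraries read 10.7, 9.05 and 10.1 in S0-Low and 34.3, 6.45 and 39.4 in S3, where replicate 2 lay below every S0-Low library. The difference was 1.42 ± 0.69 (adjusted p = 0.117, edgeR), and it passed only when that library was left out (1.89, adjusted p = 0.0316). The Cbx7 locus overlaps Apobec3, and the first bases of Ezh2 overlap the long noncoding RNA F830010H11Rik. Reads of such neighbours could be shared where counting ignored strand. The coding transcripts of Cbx7 shared no 31-base stretch with those of another gene on either strand, but introns and noncoding genes were not searched.

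Rnf2, the main ubiquitin ligase of PRC1, read 59.5, 68.4 and 76.5 in S0-Low and 46.9, 39.2 and 45.2 in S3. The ranges did not overlap, but the difference of -0.64 ± 0.29 did not pass (adjusted p = 0.0986, edgeR). It passed with DESeq2 (-0.77, adjusted p = 0.00989) and with library totals (-1.49, adjusted p = 0.00247). Ring1 was near the bottom throughout, at 11.4, 10.4 and 11.5 in S0-Low and 11.4, 4.73 and 0 in S3, and its difference of -1.05 ± 1.10 did not pass (adjusted p = 0.47). Ring1 had 0 counts in the S3 replicate 3 library, where the floor of 3 counts allows up to 0.0998 CPM before scaling.

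**Figure D4:**
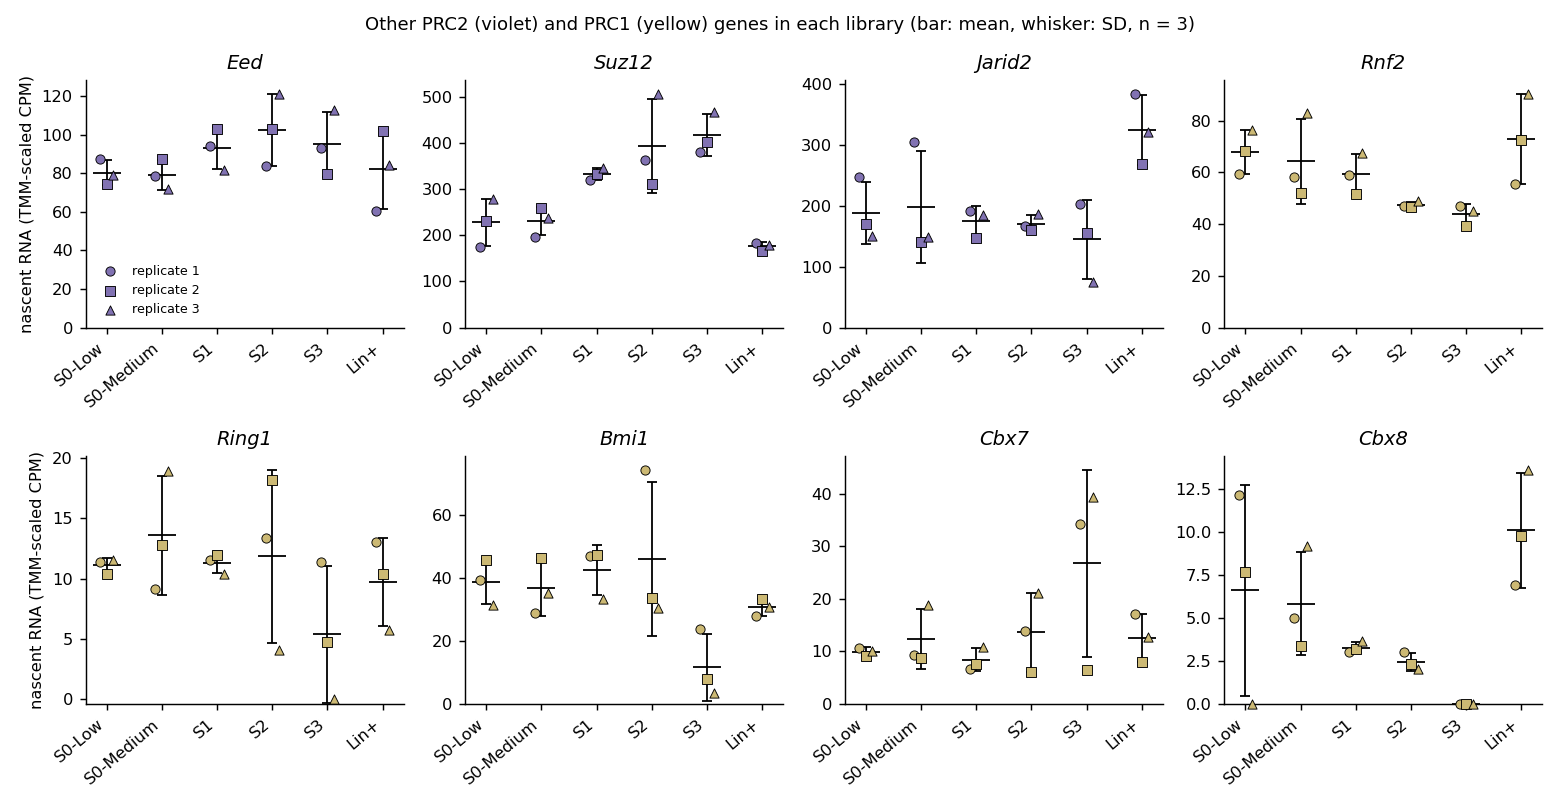
Nascent RNA of the other 8 genes in TMM-scaled CPM, by population, on linear axes with a separate range for each gene (violet: PRC2, yellow: PRC1). Points are libraries, bars means and whiskers SD of 3 libraries. Suz12 climbs to S3, Bmi1 drops in S3, Cbx8 steps down to 0 in S3, and Jarid2 has its highest mean in Lin+.

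Counted together, 5 of 10 genes passed in S3 against S0-Low. Ezh1, Ezh2 and Suz12 were higher, beside 13.4% of all tested genes called higher, and Bmi1 and Cbx8 were lower, beside 22.4% called lower. With library totals 2 of the 10 were higher and 4 lower, and of all genes 1156 were higher and 6228 lower, against 2220 and 3712 with TMM factors. The median of the 10 was -0.07, against -0.54 for all tested genes. In S3 against S2, Ezh1 was called higher (3.26% of all genes) and Bmi1 and Cbx8 lower (6.09%), and the same split was found with library totals, where 288 of all genes were higher and 2264 lower against 540 and 1008. These comparisons share the S3 libraries. Tested for any difference among the 5 erythroid populations, Ezh1 (adjusted p = 0.00179), Ezh2 (0.00212), Cbx8 (0.0287) and Suz12 (0.0464) passed by edgeR, beside 24.6% of all genes. Suz12 was not called there with DESeq2, RLE factors, library totals, no filter or at least 10 counts, nor without any single library other than S2 replicate 2. Cbx8 was not called without S0-Low replicate 1 or 2 or any of the S3 libraries, and Ezh2 not with library totals.

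The 3 earlier steps gave no call. From S0-Low to S0-Medium, S0-Medium to S1 and S1 to S2, edgeR called 0 of the 10 genes, 0 also at an unadjusted p under 0.05, and DESeq2 called 0. It called 0% of all genes at each step as well, where DESeq2 called 47, 401 and 147 genes of 16555 and 539, 1135 and 667 genes had an unadjusted p under 0.05 in edgeR. The closest was Suz12 from S0-Medium to S1, at 0.52 ± 0.27 (adjusted p = 0.809, edgeR), with libraries apart. Rnf2 and Cbx8 also had libraries apart from S1 to S2, both lower in S2, at -0.32 ± 0.29 and -0.42 ± 1.29.

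Levels of different genes can be set side by side only per length, here per kilobase of the longest coding transcript. In S0-Low the order was Ezh2 (65.4 ± 13.48, SD, n = 3), Suz12 (52.1 ± 11.8), Eed (38.9 ± 3.10), Jarid2 (31.5 ± 8.54) and Rnf2 (22.5 ± 2.81). Below them came Bmi1 (10.8 ± 2.01), Ezh1 (7.16 ± 1.12), Ring1 (5.46 ± 0.31), Cbx7 (2.94 ± 0.25) and Cbx8 (1.85 ± 1.72). In S3 Ezh2 stood at 209 ± 64.7 and Suz12 at 95.2 ± 10.4, and Ezh1 came next at 61.4 ± 40.5, above Eed (46.0 ± 8.11) in mean but with a wide spread. Bmi1 at 3.26 ± 2.98 and Ring1 at 2.64 ± 2.80 were lowest of those with counts. Which parts of a gene the counts cover is not given in the sources used here, so this order is only as good as the length.

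Lin+ cells gave no call against S0-Low. Of the 10 genes, 0 passed by edgeR over 17755 genes and 0 by DESeq2, beside 0.715% of all genes by edgeR and 3.48% by DESeq2, which does not show that the populations were alike. Jarid2 alone had an unadjusted p under 0.05 (0.0432), at 384, 269 and 321 in Lin+ against 247, 170 and 150 in S0-Low, a difference of 0.78 ± 0.36 (adjusted p = 0.479). Its libraries did not overlap. The log2 ratio of Ezh2 to Ezh1 was 2.45, 2.31 and 1.59 in Lin+, between the means of S0-Low (2.52) and S3 (1.26). It was lower than in the same-numbered S0-Low library in all 3 pairs, by a mean difference of -0.40 ± 0.15 (SD, n = 3), while the ranges of the populations overlapped.

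Against S3, 7 of 10 genes passed in Lin+. Lower in Lin+, beside 14.1% of all genes, were Ezh1 (-2.64 ± 0.60, adjusted p = 0.00204), Ezh2 (-1.65 ± 0.27, adjusted p = 0.00011) and Suz12 (-1.24 ± 0.25, adjusted p = 0.000814). In Lin+ Ezh1 read 37.2, 33.4 and 53.3, Ezh2 203, 166 and 161, and Suz12 183, 167 and 179, all below every S3 library of the same gene. Higher in Lin+, beside 28.2% of all genes, were Jarid2 (1.16 ± 0.36, adjusted p = 0.0161), Bmi1 (1.39 ± 0.54, adjusted p = 0.0473), Rnf2 (0.73 ± 0.28, adjusted p = 0.0458) and Cbx8 (at least 56.7-fold, adjusted p = 0.000491). The median of all tested genes in this comparison was 0.69, and Rnf2 stood only 0.05 above it. With library totals Suz12 no longer passed (-0.44, adjusted p = 0.153), and of all genes 7126 were higher and 1338 lower against 5005 and 2496.

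The calls of Jarid2, Bmi1 and Rnf2 hung on single libraries. Leaving out S3 replicate 3 gave adjusted p-values of 0.0654 for Jarid2, 0.147 for Bmi1 and 0.0808 for Rnf2. The count of listed genes called went from 7 to 4 in that fit. The share of all genes called in it is not given here. Whether the fall is particular to the listed genes therefore cannot be told. Jarid2 was also lost without Lin+ replicate 1 (adjusted p = 0.0557). Bmi1 was lost without any of the Lin+ libraries or S3 replicate 2 (0.0711 to 0.11), and Rnf2 without S3 replicate 1 or 2 or Lin+ replicate 2 or 3 (0.0633 to 0.188). The fit and filter mattered too. Rnf2 was also lost with no filter, and both Bmi1 and Rnf2 with only the libraries compared. Jarid2, Bmi1 and Rnf2 were all lost without the number 3 libraries.

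The list of other Polycomb genes held 40 genes of other PRC2 subunits, other PRC1 subunits and opposing enzymes. Of these 38 were tested in S3 against S0-Low, 6 were higher, beside 13.4% of all tested genes, and 13 lower, beside 22.4%, with a median of -0.29 against -0.54 for all tested genes. The share called higher was near that of all genes. With library totals 2 were higher and 20 lower, where 1156 and 6228 of the 16555 genes were. Among the other PRC2 genes 1 of 7 tested was higher and 3 were lower, among the other PRC1 genes 3 of 23 were higher and 9 lower, and among the opposing enzymes 2 of 8 were higher and 1 lower.

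The clearest fall was that of Kdm2b, which brings a variant PRC1 to CpG islands, from 159, 121 and 186 in S0-Low to 17.8, 21.6 and 20.2 in S3 (-2.97 ± 0.32, adjusted p = 1.25e-05, edgeR). Its PCGF partner Pcgf1 went up, from 6.5, 13.1 and 6.1 to 34.7, 47.7 and 37.2 (2.21 ± 0.52, adjusted p = 0.0044), although not past the threshold with library totals (1.37, adjusted p = 0.0567). Pcgf5, a PCGF subunit of another variant PRC1, rose from 102, 63.9 and 83.1 to 136, 148 and 318 (1.27 ± 0.36, adjusted p = 0.0136). The Pcgf5 call was lost in 6 of 16 alternatives. Among them were leaving out S0-Low replicate 2 (1.05, adjusted p = 0.077) or S3 replicate 3 (0.76, adjusted p = 0.0947) and library totals (0.38).

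Usp7, a deubiquitinase that joins variant PRC1, rose from 362, 431 and 262 to 1422, 1757 and 2468 (2.42 ± 0.31, adjusted p = 4.34e-05, edgeR). Mga, of the variant PRC1 with Pcgf6, fell from 304, 325 and 377 to 145, 181 and 106 (-1.22 ± 0.33, adjusted p = 0.0111, edgeR). Auts2, of the variant PRC1 with Pcgf5, fell from 152, 53.4 and 52.3 to 0.1, 0.5 and 4.0 (-5.82 ± 1.48, adjusted p = 0.00716). Epop, an accessory subunit of PRC2, had 1338, 1408 and 1 counts in S0-Low and 0 in every S3 library, a fall of at least 130-fold (adjusted p = 0.00331).

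Of the opposing enzymes, Kdm6a (Utx), which removes methyl groups from lysine 27 of histone H3, rose from 105, 104 and 187 to 791, 563 and 1037 (2.59 ± 0.42, adjusted p = 0.000304, edgeR). Asxl2, a partner of the H2A deubiquitinase Bap1, rose from 152, 110 and 192 to 383, 257 and 367 (1.15 ± 0.29, adjusted p = 0.00688). The Asxl2 call was lost in 4 of 16 alternatives. Among them were leaving out S0-Low replicate 2 (0.89, adjusted p = 0.0541) and library totals (0.30, adjusted p = 0.403). Its paralog Asxl3 fell from 13.7, 8.1 and 3.0 to 0.5, 0.3 and 0.2 (-4.71 ± 1.24, adjusted p = 0.00878). The Kdm6a libraries of S3 were all above those of S0-Low, and those of Asxl3 all below.

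Classic Polycomb targets, such as HOX genes and genes of other lineages, were at or near 0 in the later populations. Of 18 such genes listed, 17 were found, 14 had a count in some library and 6 were tested. In S3 against S0-Low 3 of the 6 were called lower, Hoxa9, Hoxb3 and Hoxa7. Among the erythroid populations these had counts almost only in S0-Low and S0-Medium and passed the filter on low counts through them. Their direction was thus largely set by the filter. The count of calls, and the folds and adjusted p-values given below for Hoxa9, Hoxb3 and Hoxa7, are only descriptions. Their summed level was 12.7 to 74.9 in S0-Low, 0.41 to 11.0 in S0-Medium, 0.63 to 2.92 in S1, 0.09 to 1.73 in S2 and 0 to 1.49 in S3. Hoxa9, a HOX factor of blood progenitors, had 1467, 952 and 63 counts in S0-Low and 0 in S3, a fall of at least 125-fold (adjusted p = 0.00159, edgeR), or 81.3-fold without S0-Low replicate 1. Hoxb3 was at least 17.4-fold lower (adjusted p = 0.0184), from 51, 28 and 88 counts to 0. The S0-Low levels of Hoxb3 were 1.32, 0.70 and 7.31, so the shallowest library carried most of its mean, and without it the bound was 5.66-fold. Cdkn2b, a cell cycle inhibitor named after its values were seen, did not follow this course. It read 0.52, 0.22 and 0 in S0-Low, 2.47, 2.19 and 0 in S1, and 0, 1.17 and 1.09 in S3 (1.55 ± 2.09, adjusted p = 0.581). It made up most of the summed level in each S1, S2 and S3 library where it had counts.

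Hoxa7 had 1065, 595 and 2 counts in S0-Low and 0, 7 and 0 in S3, with overlapping ranges (adjusted p = 0.0355, edgeR). Its call was lost without S0-Low replicate 1 (0.0918), S0-Low replicate 2 (0.063), S3 replicate 1 (0.0839) or S3 replicate 3 (0.092). Over 7 stem and progenitor markers the summed level fell over the same populations, from 1018 to 1510 in S0-Low to 1.61 to 10.8 in S3, with Hlf at 0. In Lin+ that sum was 1031 to 1526 and the sum of the Polycomb targets 15.3 to 27.0. The part of the makeup of the gates in these falls was not tested.

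Some of the cell cycle genes rose to S3, as Ezh2 did. Of 9 tested, 6 were higher in S3 against S0-Low, beside 13.4% of all tested genes, and 0 lower, beside 22.4%. Their median was 1.81 against -0.54 for all genes, and 6 were also higher with library totals. In S3 against S2, 3 were higher, beside 3.26% of all genes, and 0 lower, beside 6.09%. With library totals 1 was higher and 2 lower, where 288 and 2264 of the 16555 genes were. The replication genes Mcm2 (703.6 ± 118.7 in S2 and 490.9 ± 65.2 in S3, SD, n = 3) and Mcm5 (648.4 ± 84.7 and 467.4 ± 39.4) and the cell cycle factor E2f1 (98.7 ± 37.0 and 75.4 ± 8.86) were lower in mean in S3 than in S2 without passing. The summed level of the list, most of it Mki67 in S3 (mean 21580), was 3262 to 4431 in S0-Low, 6211 to 9086 in S1, 8531 to 15900 in S2 and 19176 to 52131 in S3, and 2709 to 3566 in Lin+. The part of cell cycle state in the Ezh2 values was not tested. In the same units 7 macrophage markers summed to 0.06 to 0.15 in S3 and 0 to 2.56 in S0-Low, and 5 hepatocyte markers to 0 to 0.38 and 5.79 to 9.05.

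The genes most like Ezh1 over the 15 erythroid libraries, by Pearson's r of log2(CPM + 0.5) among 12081 genes, were Mxi1 (0.984), Trim58 (0.984), Fbxo9 (0.984), 4931406P16Rik (0.98) and Grap2 (0.978). Their mean levels in S0-Low were between 18.2 and 88.8 and in S3 between 386 and 635. For Ezh2 they were Luc7l2 (0.963), Crebbp (0.96), Anp32b (0.96), Eif2c2 (0.958) and Itsn1 (0.958), whose S3 means ranged from 530 for Crebbp to 1899 for Anp32b. The points are libraries that share populations and scaling, so these coefficients are descriptions. Between the paralogs themselves r was 0.77 over the same 15 libraries, and it was -0.89 between Ezh1 and Bmi1.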

How the data were processed

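The authors made stranded libraries by PCR without molecular identifiers, assigned reads to transcripts with kallisto 0.43.0 (build GRCm38 in the submitters' notes) and deposited estimated counts as integers for each gene and library, with no normalization. The transcript set, the treatment of introns and the strand setting are not given in the sources used here. Of the 10 genes only Jarid2 shared any 31-base stretch of its coding transcripts with those of another gene (0.175%). Noncoding genes and introns were not searched.

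Samples were grouped by their labels. Counts entered edgeR 4.0.16 in R 4.3.3 (TMM factors, filterByExpr, quasi-likelihood test, two-sided, Benjamini-Hochberg over all genes, threshold 0.05), with 15 erythroid libraries (16555 genes), or all 18 for Lin+ (17755 genes). The step was also run on simulated counts with less spread than these data and no shift between populations over the whole table. That run cannot show how it performs at the spread and scaling found here. Standard errors are the log2 fold change over the root of F. Folds against a group at 0 use 3 counts per library, and such floors cover counting error only. The Ezh2 to Ezh1 ratio adds 0.5 counts to each on the log2 scale only. DESeq2 1.42.0 was an alternative. Library totals ranged from 9452476 to 40567976.

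The 10 genes, the other lists and the tests were chosen with earlier results of these data known. All 10 genes were named, with the 10 other Polycomb genes and the classic targets of smallest adjusted p in S3 against S0-Low, and the 5 genes most correlated with Ezh1 or Ezh2 among genes whose mean reached 100 normalized counts in some population. Of 104 list genes 102 were found by symbol. Promoters are from RefSeq (GRCm38.p6), where all 10 genes matched, and lengths from GENCODE vM1.

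Same-numbered libraries were taken to deviate together where every pair's r exceeded 0.1, which held for S3 and S2 (0.17, 0.26 and 0.31) and for each earlier step (0.26 to 0.55) and Lin+ and S0-Low (0.21, 0.25 and 0.32), but not for S3 and S0-Low (0.08, 0.13 and 0.11) or Lin+ and S3 (0.10, 0.13 and 0.17). The labels do not say what a number stands for.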

Additional observations from a re-analysis of the deposited data

How the results depend on the processing

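The count of the 10 genes called was recomputed with DESeq2, RLE factors, library totals, no filter, at least 10 counts in every library, a replicate block, a fit of the compared libraries alone, a fit of all 18 and each library left out. Leaving out the number 3 libraries, and the block with library totals, were added after seeing the data, as were the fold bounds with each library left out. With only the libraries compared, the count fell from 5 to 2 (of 9 tested) in S3 against S0-Low and from 3 to 0 in S3 against S2, where fewer samples set the spread. With at least 10 counts in every library it fell from 4 to 2 (of 8 tested) for any difference among the erythroid populations, while the share of all genes called went from 24.6% to 27.1%. Without the number 3 libraries it fell from 7 to 4 in Lin+ against S3, and the share of all genes from 42.2% to 39.9%. Leaving out 1 library gave 3 to 5 in S3 against S0-Low, 0 to 3 in S3 against S2, 2 to 4 for any difference and 4 to 6 in Lin+ against S3. The share of all genes called in these fits is not given here, so these counts cannot be set against it. The cause of the changes was not tested. The Eed difference in S3 against S0-Low turned to -0.61 with library totals, -0.015 with at least 10 counts and -0.61 (adjusted p = 0.0373 in edgeR) with the block and library totals.

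With the replicate block 5 genes were called in S3 against S0-Low, 7 in Lin+ against S3, 0 in Lin+ against S0-Low and at each earlier step, 4 in S3 against S2 and 5 for any difference among the erythroid populations. The block also raised the share of all genes called, from 35.8% to 42.4% in S3 against S0-Low, from 42.2% to 48.1% in Lin+ against S3, from 9.35% to 18.6% in S3 against S2, from 24.6% to 33.1% for any difference and from 0.715% to 1.93% in Lin+ against S0-Low, and it called 23, 57 and 0 of all genes at the earlier steps. Of the recomputed values of single genes, 449 kept their direction and side of the threshold, 63 lost the call, 9 gained it and 3 turned in sign. Over all genes the number called in S3 against S0-Low was 5932 of 16555 (35.8%), against 3834 of 13423 (28.6%) with only the libraries compared and 3043 of 7763 (39.2%) with at least 10 counts. In S3 against S2 it was 1548 of 16555, against 98 of 11911 with only the libraries compared and 4253 of 16555 with the block and library totals.

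A count of 0 allows a level of up to 3 counts, which is 0.317 CPM in the shallowest library, S0-Low replicate 3. Cbx8 had 0 counts in it, while the other S0-Low libraries read 12.1 and 7.71.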
